A study of Mus musculus with 16 samples.

Results

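The genes described here were 8 myeloid growth factors and receptors: the ligands Csf1, Il34, Csf2, Csf3 and Flt3l, and the receptor chains Csf1r, Csf2ra and Csf2rb. They were taken by symbol from the 50600 gene identifiers of a count table of mouse epidermal cells, and all 8 passed the filter on low counts, as did 22155 genes in all. Cells came from the footpad epidermis of 16 female C57/B6J mice, with 1 library for each mouse and 4 mice in each of 4 groups. From 5 wk of age and for 3 wk, mice ate either AIN-93M, a purified diet poor in ligands of the aryl hydrocarbon receptor (AhR-poor diet, SYNTH in the labels), or this diet with 200 ppm of indole-3-carbinol, a plant compound from which AhR ligands form (I3C diet). The footpad then received 50 μl of PBS, as vehicle or carrying 50 μg of the cysteine protease papain, an allergen, and cells were prepared 6 hr later. The design thus asks how papain changed these genes on each diet, and how the diets differed with vehicle and with papain. Because mice on a diet shared a cage, diet and cage cannot be told apart.

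Colony-stimulating factors are secreted proteins that keep myeloid cells alive and drive them to divide, mature or become activated. Csf1 and Il34 both bind the receptor tyrosine kinase Csf1r, and in the epidermis Il34 made by keratinocytes maintains Langerhans cells, the resident antigen-presenting cells of this layer. Csf2 (GM-CSF) signals through a specific chain, Csf2ra, paired with a chain shared with other cytokines, Csf2rb, whereas Csf3 (G-CSF) acts on neutrophils through Csf3r, and Flt3l acts on dendritic cell progenitors through Flt3.

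Library totals ran from 22500821 to 51844375 counts. Levels are given in CPM, counts relative to the scaled library total, and 3 counts, taken as the detection floor, were worth 0.0569 to 0.130 CPM, which accounts for error in counting alone. The tissue label fitted the markers, since 10 keratinocyte markers summed to between 41809 and 66995 CPM in every library.

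Markers of other cells were not equal between groups, and since 1 gene can carry a sum, each list is given by its calls too. Calls required an edgeR adjusted p under 0.01 together with a log2 difference of more than 1 in either direction. Of all tested genes, 6.04% were called higher with papain on the AhR-poor diet and 3.69% on the I3C diet. Between diets, 1.59% were called higher on the AhR-poor diet with vehicle and 7.15% with papain. At an unadjusted p under 0.05 were 2764 of the 22155 genes between diets with vehicle and 7089 with papain. Of the neutrophil markers named, S100a8, S100a9, Mmp9 and Hdc were chosen after their values were seen, as were Postn and Epcam. Of 12 neutrophil markers, 12 were called higher with papain on the AhR-poor diet and 4 on the I3C diet, and between diets 0 were called with vehicle (5 at an unadjusted p under 0.05) and 8 with papain. Their median sum was 2.72 CPM with vehicle and 71.1 CPM with papain on the I3C diet, against 11.9 CPM and 603 CPM on the AhR-poor one. With papain on the I3C diet most of it came from Cxcr2, S100a9, S100a8 and Mmp9, which averaged 24.2, 16.9, 16.6 and 10.1 CPM, while Hdc averaged 2.06 CPM and each of the others at most 0.739 CPM. Ly6g, which defines neutrophils in mice, had 0 counts in every library outside the AhR-poor papain group. Of 13 monocyte and macrophage markers, 5 were called above their I3C level with vehicle and 12 with papain.

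Of 13 dermal fibroblast markers, 10 were called above their I3C level with vehicle and 11 with papain, with median log2 differences of 4.07 and 6.51 against -0.0100 and 0.010 over all genes. Col1a1, a collagen chain, averaged 1.43 and 1.25 CPM with vehicle and papain on the I3C diet and 24.4 and 88.9 CPM on the AhR-poor one. The sum of the list differed less, with medians of 294, 238, 382 and 961 CPM in the same order, because Postn made up most of it outside the AhR-poor papain group, at 283, 235, 269 and 334 CPM on average. Of 10 endothelial markers, 9 were called above their I3C level with vehicle and 10 with papain, with medians of 3.91 and 5.02, and of 8 mast cell markers 1 and 7 were. Of 10 T cell markers, 0 were called between diets with vehicle, also at an unadjusted p under 0.05, and 1 with papain, where the median was 1.24. With papain 9 of the 10 were at an unadjusted p under 0.05, as were 7089 of all 22155 genes. In bulk libraries, a change in the number of cells of a type and a change in RNA per cell cannot be told apart.

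With papain, Csf1 rose and Il34 fell on both diets, and the Csf2 and Csf3 ligands with both chains of the Csf2 receptor rose on the AhR-poor diet. On the AhR-poor diet papain gave 5 members called higher and 1 called lower, where 6.04% and 2.42% of all tested genes were called in those directions. On the I3C diet 1 member was called higher and 1 lower, against 3.69% and 5.29% of all genes. Between diets with vehicle 0 of the 8 were called (3 at an unadjusted p under 0.05, and DESeq2 called 1), where 1.59% of genes rose and 0% fell on the AhR-poor diet relative to the I3C diet. With papain, 5 members were called higher on the AhR-poor diet and 0 lower, against 7.15% and 0.0993% of all genes. For the interaction, the papain change on the AhR-poor diet minus that on the I3C diet, 0 of the 8 passed an adjusted p of 0.05. At an unadjusted p under 0.05 were 3 of the 8 and 2987 of all 22155 genes, and 1 member passed by DESeq2. Of all genes, 0.311% passed with a positive and 0.0181% with a negative difference. This sign does not tell on which diet the papain change was larger.

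**Figure D1:**
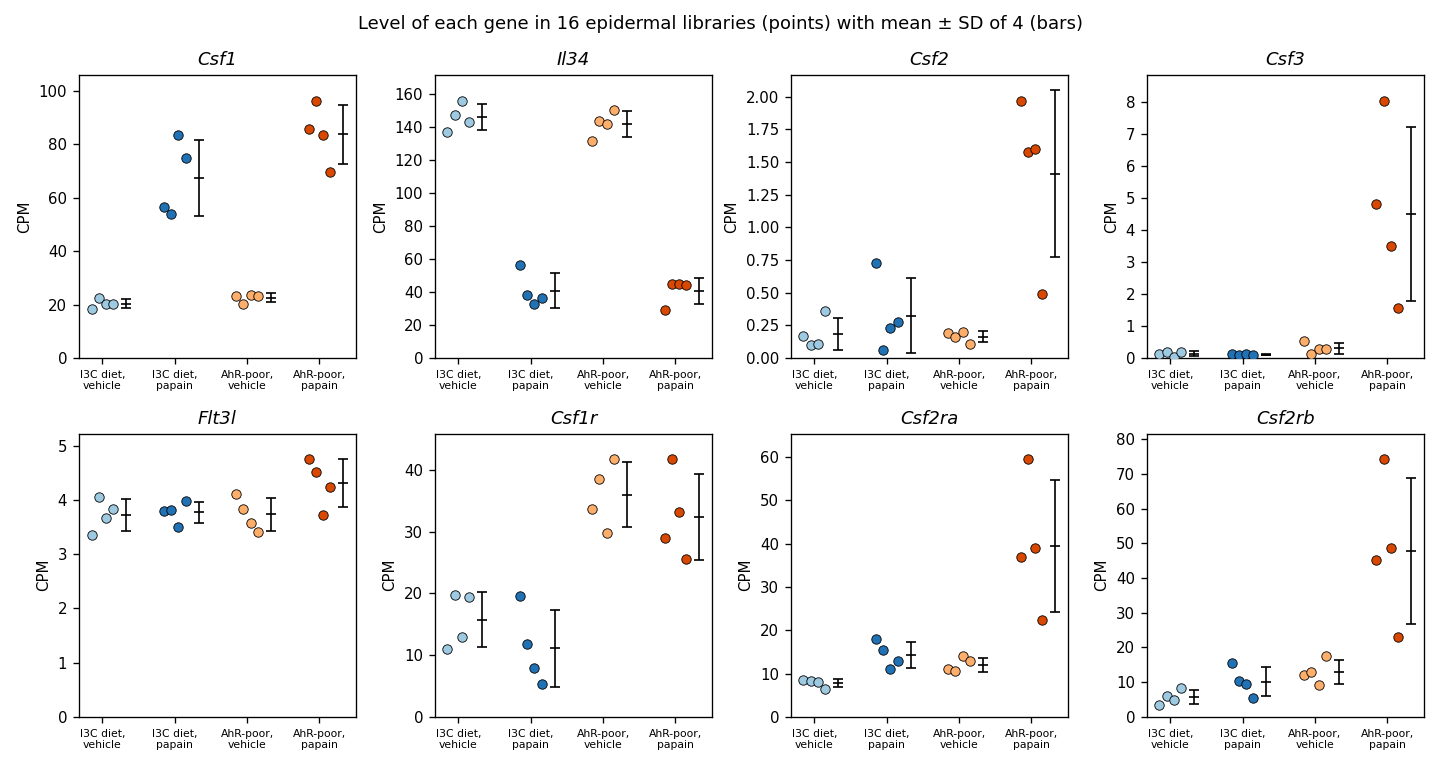
Level of each of the 8 genes (CPM, linear axis from 0) in the 4 libraries of each group (points), with the mean and SD beside them. Csf1 and Il34 separate by papain on both diets, Csf1r separates by diet, and Csf2, Csf3, Csf2ra and Csf2rb are highest in the AhR-poor papain group.

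Csf1 (ENSMUSG00000014599, chr3:107741048-107760469 on the minus strand of GRCm38), the macrophage colony-stimulating factor, rose with papain on both diets. With vehicle it stood at 18.4, 22.4, 20.2 and 20.3 CPM on the I3C diet and at 23.3, 20.1, 23.4 and 23.3 CPM on the AhR-poor diet. After papain the values were 56.6, 53.9, 83.4 and 74.9 CPM on the I3C diet and 85.5, 96.3, 83.2 and 69.5 CPM on the AhR-poor diet, so that every papain library lay above every vehicle library. The rise was 1.72 ± 0.13 (log2, SE) on the I3C diet, a 3.30-fold change (adjusted p = 1.4e-08), and 1.89 ± 0.13 on the AhR-poor diet, a 3.71-fold change (adjusted p = 1.2e-08). Between the responses the difference was 0.17, with a 95% interval from -0.20 to 0.54 (adjusted p = 0.72). The diets differed by 0.15 with vehicle (interval -0.12 to 0.41) and by 0.32 with papain (interval 0.056 to 0.58, adjusted p = 0.080), and neither difference passed.

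Il34 (ENSMUSG00000031750, chr8:110741829-110805924, minus strand), the other ligand of Csf1r, moved the opposite way. On the I3C diet its level was 136.9, 147.0, 155.7 and 142.7 CPM with vehicle and 56.4, 38.2, 32.5 and 36.0 CPM with papain. On the AhR-poor diet it was 131.4, 143.6, 141.3 and 149.9 CPM with vehicle and 28.9, 44.6, 45.1 and 43.9 CPM with papain. No papain library reached the lowest vehicle library. The log2 change was -1.83 ± 0.16 on the I3C diet (3.57-fold lower, adjusted p = 1.2e-07) and -1.80 ± 0.15 on the AhR-poor diet (3.49-fold lower, adjusted p = 3.0e-07). Between diets the difference was -0.041 with vehicle (interval -0.36 to 0.28) and of -0.0095 with papain (interval -0.33 to 0.31). A pair of antisense genes shares 97 of its 1959 exonic bases, and each averaged at most 1.12 CPM in any group.

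Per kilobase of exon, the scale on which genes can be compared, Il34 was the highest of the 8 genes in every group. With vehicle it averaged 74.3 ± 4.05 CPM per kilobase (SD, n = 4) on the I3C diet and 72.3 ± 3.92 on the AhR-poor diet, where Csf1 averaged 3.85 ± 0.31 and 4.26 ± 0.31. The ratio of Il34 to Csf1 in single libraries ran from 15.2 to 20.8 with vehicle, both diets included. With papain it ran from 1.05 to 2.69 on the I3C diet and from 0.910 to 1.70 on the AhR-poor diet, and 1 library, T104 of the AhR-poor diet, held more Csf1 than Il34 on this scale. The summed level of both ligands averaged 78.2 and 76.5 CPM per kilobase with vehicle and 33.6 and 36.6 with papain, on the I3C and the AhR-poor diet respectively.

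**Figure D2:**
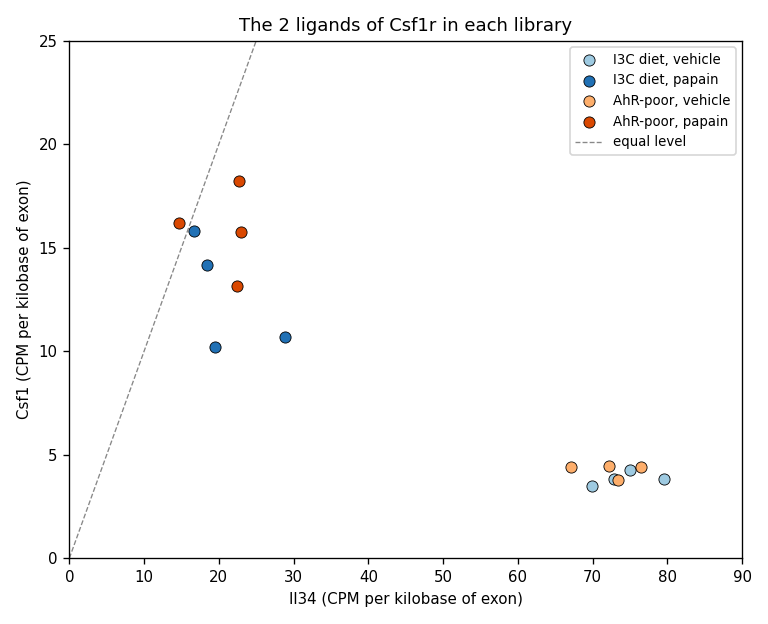
Level of Csf1 against that of Il34 in each of the 16 libraries, both in CPM per kilobase of exon, with a dashed line where the levels are equal. The 8 vehicle libraries lie at 67.1 to 79.5 for Il34 and the 8 papain libraries at 14.7 to 28.8, near the line, and the diets overlap within each treatment.

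Csf2 (ENSMUSG00000018916, chr11:54247271-54249667, minus strand), which encodes GM-CSF, was scarce, and its call with papain on the AhR-poor diet rests on few counts. With vehicle the I3C libraries held 6, 4, 4 and 12 counts and the AhR-poor libraries 7, 6, 8 and 4. Papain gave 30, 2, 8 and 11 counts on the I3C diet, 0.0641 to 0.731 CPM, and 80, 83, 37 and 18 counts on the AhR-poor diet, 0.489 to 1.97 CPM. All AhR-poor papain libraries lay above their vehicle group, whereas the I3C papain libraries spanned theirs. The rise was 3.08 ± 0.55 on the AhR-poor diet (8.44-fold, adjusted p = 0.00024). On the I3C diet it was 0.86 ± 0.60 (interval -0.39 to 2.12, adjusted p = 0.29), so a change was not detectable at this depth. With papain Csf2 was 2.06 ± 0.50 higher on the AhR-poor diet (adjusted p = 0.0064), but I3C library T106 lay above AhR-poor library T112, and the two-sided exact permutation test gave p = 0.0571 where 0.0286 is the smallest possible. An antisense gene, Gm12223, shares 96 of the 800 exonic bases of Csf2 and had at most 1 count in a library. Without T106 the diet difference of Csf2 was 2.85, the highest of the values with 1 library left out (lowest 1.76, without T113), and the papain change on the I3C diet was 0.077, against 1.39 without T111. The diet call was lost when any of T113, T114, T115, T104, T105 or T107 was left out (adjusted p = 0.0155 to 0.0261) and when only the 8 papain libraries were fitted (adjusted p = 0.0308).

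Csf3 (ENSMUSG00000038067, chr11:98701263-98703629, plus strand), which encodes G-CSF, was near the floor except with papain on the AhR-poor diet. The I3C libraries held 4, 8, 1 and 6 counts with vehicle and 5, 3, 4 and 4 counts with papain. On the AhR-poor diet there were 20, 5, 11 and 10 counts with vehicle, 0.132 to 0.545 CPM, and 196, 424, 81 and 58 counts with papain, which is 4.83, 8.04, 3.51 and 1.58 CPM. The lowest of these papain libraries exceeded all 12 libraries of the other groups. Papain raised Csf3 by 3.88 ± 0.47 on the AhR-poor diet (14.8-fold, adjusted p = 6.1e-06), and gave -0.27 ± 0.73 on the I3C diet (interval -1.81 to 1.26, adjusted p = 0.82). With papain the level on the AhR-poor diet was 5.34 ± 0.54 above that on the I3C diet (40.5-fold, adjusted p = 2.4e-06), a fold taken against 3 to 5 counts a library. The interaction was 4.16 ± 0.89 (interval 2.28 to 6.04) and missed its threshold with an adjusted p of 0.055. It passed without library T106, T110, T112 or T100 (adjusted p = 0.0042 to 0.0371), with DESeq2 (adjusted p = 0.00015), with library sizes alone (0.0454) and with the filterByExpr gene filter (0.0483). Csf3r, the receptor of Csf3 on neutrophils, averaged 0.0271 CPM with vehicle (0 to 2 counts) and 0.739 CPM with papain on the I3C diet, and 0.608 and 57.8 CPM on the AhR-poor diet. The part that neutrophils, dermal fibroblasts, endothelial cells or other cells in the preparations had in the Csf2 and Csf3 values was not tested.

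Flt3l (ENSMUSG00000110206, chr7:45129788-45136432, minus strand), the ligand of Flt3, was called in no comparison. Its means were 3.73 ± 0.29 and 3.78 ± 0.19 CPM (SD, n = 4) with vehicle and papain on the I3C diet, and 3.74 ± 0.31 and 4.31 ± 0.44 CPM on the AhR-poor diet. The 16 libraries lay between 3.36 and 4.75 CPM and all groups overlapped. Across the 4 comparisons the log2 difference ran from 0.00095 to 0.21, with every 95% interval between -0.28 and 0.49. A protein-coding gene on the same strand, Gm45713, shares 856 of its 3878 exonic bases and had no counts, and reads from the shared bases could have been assigned to neither. Flt3 itself averaged 0.254 to 0.772 CPM and was called in no comparison.

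The promoters of Csf1, which rose with papain on both diets, of Csf2ra, which was called on the AhR-poor diet, and of Flt3l, which was not called, are shown for contrast as the 250 bases before the RefSeq start, 5′ to 3′ on the gene's strand (GRCm38.p6). Both strands were searched for an AP-1 site (TGANTCA), the core of the AhR response element (GCGTG), a STAT site (TTCNNNGAA), the CK-1 element of cytokine promoters (GAGATTCC) and an NF-kB site by its consensus. Capitals mark the matches.
Csf1 (chr3:107760470-107760719): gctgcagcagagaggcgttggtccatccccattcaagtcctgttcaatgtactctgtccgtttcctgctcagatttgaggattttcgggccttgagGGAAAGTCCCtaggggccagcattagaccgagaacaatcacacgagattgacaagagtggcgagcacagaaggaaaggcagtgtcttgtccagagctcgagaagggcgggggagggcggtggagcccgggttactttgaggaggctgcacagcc
Csf2ra (chr19:61228419-61228668): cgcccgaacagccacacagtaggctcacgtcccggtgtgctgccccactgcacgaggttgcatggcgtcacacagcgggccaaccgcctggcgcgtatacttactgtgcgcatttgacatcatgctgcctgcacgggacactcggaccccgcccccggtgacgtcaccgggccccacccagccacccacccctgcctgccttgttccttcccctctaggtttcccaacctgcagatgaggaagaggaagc
Flt3l (chr7:45136433-45136682): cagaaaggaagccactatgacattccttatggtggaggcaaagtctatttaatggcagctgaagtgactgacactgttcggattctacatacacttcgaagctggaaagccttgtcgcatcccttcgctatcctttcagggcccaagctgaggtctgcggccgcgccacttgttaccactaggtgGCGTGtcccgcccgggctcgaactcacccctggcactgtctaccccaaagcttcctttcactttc
Csf1 had an NF-kB match on the opposite strand, 154 to 145 bases before its start, and 3.9% of 32851 promoters of this length held one. Flt3l had a match to the AhR element core 65 to 61 bases before its start, which 28.2% of promoters held. Csf2ra had no match to any of the 5 patterns, and an AP-1, STAT or CK-1 match was in none of the 3 windows, where 6.75%, 7.02% and 0.755% of promoters held one. A match of letters is a description of the sequence, and binding was not measured.

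Csf1r (ENSMUSG00000024621, chr18:61100598-61132149, plus strand), the receptor of Csf1 and Il34, was separated by diet, and its change with papain passed no test. On the I3C diet its level was 11.0, 19.7, 12.9 and 19.4 CPM with vehicle and 19.6, 11.7, 7.85 and 5.25 CPM with papain. On the AhR-poor diet it was 33.8, 38.6, 29.8 and 41.7 CPM with vehicle and 28.9, 41.7, 33.2 and 25.5 CPM with papain. Every AhR-poor library lay above every I3C library, while vehicle and papain overlapped within each diet. With papain the AhR-poor diet was 1.54 ± 0.33 higher (2.91-fold, adjusted p = 0.0047, exact permutation p = 0.0286, the smallest possible). With vehicle it was 1.19 ± 0.33 higher (2.29-fold, interval 0.49 to 1.89), which missed the threshold (adjusted p = 0.074) although DESeq2 (adjusted p = 0.0026) and the fit of the 8 vehicle libraries (adjusted p = 0.0028) called it. The papain change was -0.50 ± 0.33 on the I3C diet (interval -1.21 to 0.21) and -0.15 ± 0.32 on the AhR-poor diet (interval -0.84 to 0.53). The diet call with papain was lost without any of T113, T114, T115, T104, T105 or T107 (adjusted p = 0.0101 to 0.0205) and in the fit of 8 libraries (0.0302). Hmgxb3, on the opposite strand, shares 873 of the 5774 exonic bases of Csf1r. It averaged 44.9 and 57.3 CPM with vehicle and papain on the I3C diet and 45.1 and 46.8 CPM on the AhR-poor diet, above Csf1r in every group. The part that reads of Hmgxb3 had in the Csf1r values was not tested.

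Cd207 (langerin), the defining marker of Langerhans cells, averaged 17.9 ± 5.77 and 13.9 ± 8.47 CPM (SD, n = 4) with vehicle and papain on the I3C diet, and 55.2 ± 8.54 and 33.7 ± 5.53 CPM on the AhR-poor diet. It differed between diets by 1.62 ± 0.34 with vehicle (adjusted p = 0.017) and 1.27 ± 0.34 with papain (adjusted p = 0.018), in the direction of Csf1r, and missed the threshold in both. With papain on the AhR-poor diet Cd207 changed by -0.71 without overlap of libraries (edgeR adjusted p = 0.12, not called). Csf1r changed there by -0.15 with overlap. On the I3C diet the papain changes of Cd207 and Csf1r were -0.36 and -0.50, both with overlap. The ratio of Csf1r to Cd207 CPM was 0.783 to 0.965 with vehicle and 0.593 to 1.17 with papain on the I3C diet, against 0.618 to 0.717 and 0.754 to 1.25 on the AhR-poor diet. Of 10 Langerhans markers, 0 were called between diets with vehicle (8 at an unadjusted p under 0.05) and 3 with papain, with median log2 differences of 1.35 and 1.22, and their sums had medians of 410 and 518 CPM on the I3C diet and 914 and 1060 CPM on the AhR-poor diet. In mice not given papain, the paper reports no significant diet difference in epidermal Langerhans cells, by imaging of ear skin and by flow cytometry of footpad. The part that the number of Langerhans cells or of macrophages had in the Csf1r difference was not tested here.

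Csf2ra (ENSMUSG00000059326, chr19:61223957-61228429, minus strand), the chain that binds GM-CSF, rose with papain on the AhR-poor diet. The I3C libraries held 8.41, 8.39, 7.998 and 6.39 CPM with vehicle and 18.0, 15.3, 11.1 and 12.9 CPM with papain. The AhR-poor libraries held 11.0, 10.6, 14.0 and 12.8 CPM with vehicle and 36.8, 59.4, 39.0 and 22.3 CPM with papain. Papain and vehicle libraries did not overlap on either diet, nor did the diets within either treatment. The rise was 1.71 ± 0.23 on the AhR-poor diet (3.27-fold, adjusted p = 3.6e-05), and 0.88 ± 0.23 on the I3C diet (1.84-fold, adjusted p = 0.0076), below the minimum fold change. With papain the AhR-poor diet was 1.46 ± 0.23 higher (2.75-fold, adjusted p = 0.0003), and with vehicle 0.63 ± 0.23 higher (adjusted p = 0.23). The interaction was 0.83 ± 0.32 (adjusted p = 0.30), and passed only without library T112 among the libraries left out (1.02, adjusted p = 0.044).

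Csf2rb (ENSMUSG00000071713, chr15:78325752-78353847, plus strand), the signalling chain shared by the receptors of GM-CSF, IL-3 and IL-5, had the same order of groups apart from the middle pair. Its level on the I3C diet was 3.50, 5.89, 4.90 and 8.25 CPM with vehicle and 15.6, 10.3, 9.48 and 5.32 CPM with papain, which overlapped. On the AhR-poor diet it was 12.2, 12.998, 9.07 and 17.4 CPM with vehicle and 45.1, 74.2, 48.6 and 23.1 CPM with papain, with no overlap. Papain raised it by 1.89 ± 0.38 on the AhR-poor diet (3.70-fold, adjusted p = 0.0015), and the change on the I3C diet was 0.85 ± 0.39 (interval 0.015 to 1.69, adjusted p = 0.11). The AhR-poor diet was 2.23 ± 0.38 higher with papain (4.69-fold, adjusted p = 0.00095) and 1.20 ± 0.39 higher with vehicle, where the groups did not overlap but the adjusted p was 0.16. For the interaction of 1.03 ± 0.54 the adjusted p was 0.42. When only the 8 papain libraries were fitted, the diet calls of Csf2ra (adjusted p = 0.0105) and Csf2rb (adjusted p = 0.0112) just missed the threshold. Csf2rb has a neighbouring copy specific for IL-3, Csf2rb2, with which 334 of its 7218 windows of 100 bases are identical (4.63%). Csf2rb2 averaged 4.77 and 6.38 CPM on the I3C diet and 10.8 and 23.4 CPM on the AhR-poor diet, and adding both genes together changed no call.

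**Figure D3:**
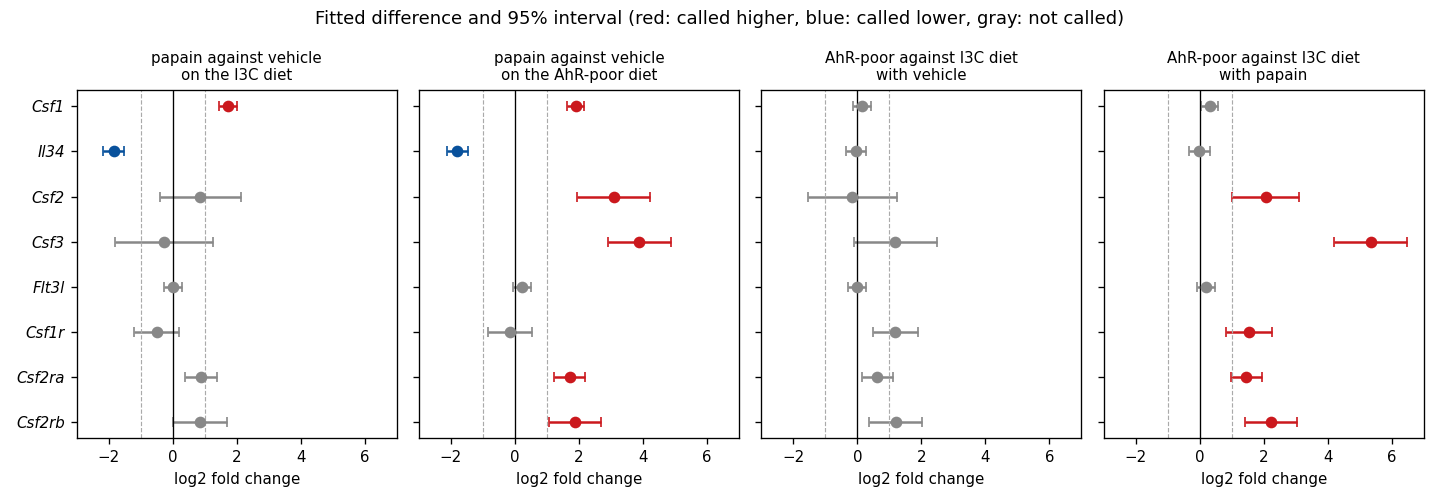
Fitted log2 fold change of each gene with its 95% interval in the 4 comparisons, with dashed lines at -1 and 1 and color marking the calls. Csf1 and Il34 are called only in the panels of papain against vehicle, at 1.72 and -1.83 on the I3C diet and 1.89 and -1.80 on the AhR-poor diet, while Csf3 reaches 5.34 between diets with papain.

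Within the AhR-poor papain group, library T112 was the lowest for Csf1, Csf2, Csf3, Csf1r, Csf2ra and Csf2rb, and its neutrophil markers summed to 138 CPM against 598 to 1040 CPM in the other 3. Library T105, with the highest neutrophil sum, was the highest for Csf1, Csf3, Csf1r, Csf2ra and Csf2rb. In the I3C papain group, T106 was the highest for Csf2, Csf1r, Csf2ra, Csf2rb and Il34, and held 94 counts of Csf3r against 1 to 16 in the others. Its neutrophil markers summed to 67.3 CPM, against 94.7 CPM in T113, 74.8 CPM in T114 and 51.9 CPM in T115. In this group T106 was thus not the highest by the sum, which came mostly from Cxcr2, S100a9, S100a8 and Mmp9. T106 was not the highest for any of these, but it was for Csf3r and for Hdc, at 5.92 CPM against a group median of 1.04 CPM. The part of these markers in the receptor values was not tested.

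**Figure D4:**
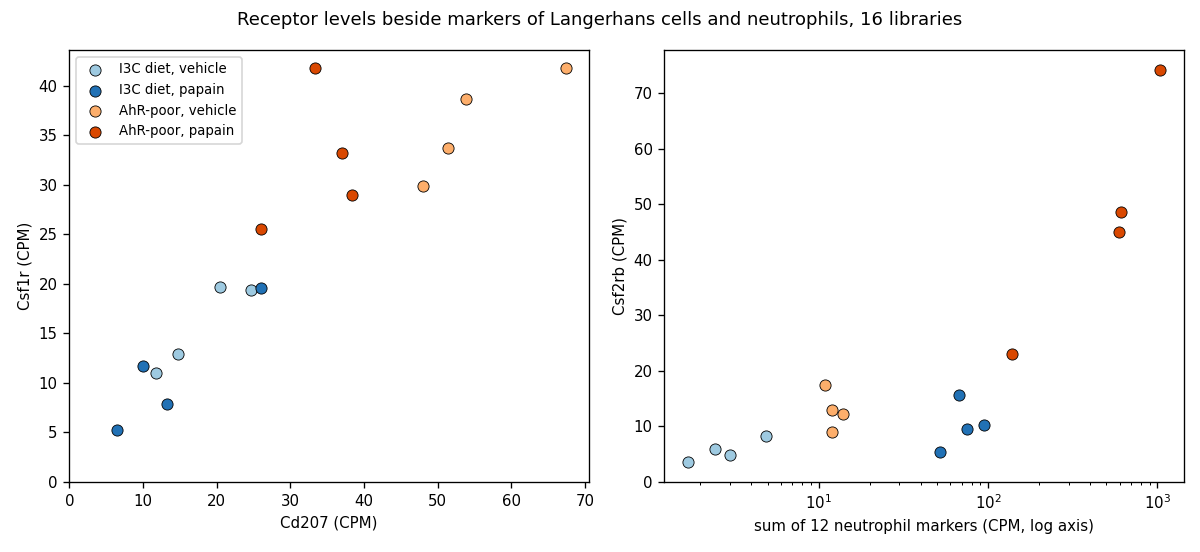
Left, Csf1r against Cd207 in each library (CPM, linear axes). Right, Csf2rb (CPM) against the sum of 12 neutrophil markers (CPM, log axis), where AhR-poor papain libraries reach 23.1 to 74.2 CPM of Csf2rb at sums of 138 to 1040 CPM. The sums of the I3C papain libraries come mostly from Cxcr2, S100a9, S100a8 and Mmp9.

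For each member with a mean of at least 1 CPM, the genes with the most similar pattern over the 16 libraries were found among 13015 genes by Pearson's r of log2 CPM, given as a description since all pairs share libraries and groups. Csf1 was most like Oasl2 (r = 0.991), Ifi35 (0.988) and Efemp2 (0.984), of which Oasl2 and Ifi35 are interferon-stimulated. Il34 was most like Slc4a9 (0.988), Dok4 (0.987) and Hlf (0.987). Csf3 followed Tnfaip6 (0.966), Arl5c (0.964) and Cyth4 (0.961). It met the minimum of 1 CPM only through the AhR-poor papain group, where it averaged 4.49 CPM against at most 0.304 CPM in the others. Csf1r was most like Itgax (0.983), an integrin of dendritic cells held in the Langerhans list, Alox5 (0.974) and Gpr141 (0.966). Csf2ra was nearest to Trim30a (0.979), Hdc (0.977), which is in the neutrophil list, and Zeb1 (0.976), and Csf2rb to Myo1g (0.986), Ifi207 (0.984) and Gpr132 (0.984). The best match of Flt3l was weaker, Dtymk (0.784), followed by Apln (0.782) and Fbln1 (0.770).

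Of 54 other genes of these pathways, 53 were tested, all but Il3. With papain on the AhR-poor diet 11 were called higher and 0 lower, with a median log2 change of 0.34 against -0.0044 over all tested genes. Of all tested genes, 6.04% were called higher and 2.42% lower. For the I3C diet 3 were called higher and 5 lower, against 3.69% and 5.29% of all genes, with a median of -0.023 against -0.036. Between diets 1 was called with vehicle, where 1.59% of all genes were called higher on the AhR-poor diet. It was Trem2, a receptor of myeloid cells, which had 0 or 1 count in every I3C library and 0.225 CPM with vehicle on the AhR-poor diet. With papain 18 were called higher on the AhR-poor diet and 0 lower, against 7.15% and 0.0993% of all genes. The median was 0.63, against 0.010 over all genes.

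Among 9 other ligands tested, papain raised Il1b and Tnf on both diets and Il5 and Il1a on the AhR-poor diet. Il1b, an inflammatory cytokine, averaged 0.378 and 6.15 CPM with vehicle and papain on the I3C diet and 2.57 and 233 CPM on the AhR-poor diet. Il6 was called higher on the AhR-poor diet with papain, at 8.94 against 2.41 CPM. With vehicle it averaged 4.21 CPM on the AhR-poor and 6.32 CPM on the I3C diet. Its papain changes, 1.09 on the AhR-poor and -1.38 on the I3C diet, were not called. Among 9 other receptors, Csf3r and Csf2rb2 rose with papain on the AhR-poor diet, by 6.56 (adjusted p = 5.6e-05) and 1.12 (adjusted p = 0.0071), and with papain Csf3r, Csf2rb2, Il3ra and Trem2 were above their I3C levels.

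Downstream, Lyn, a kinase of the Src family, and Tyrobp, an adaptor of myeloid receptors, rose with papain on the AhR-poor diet, by 2.34 and 2.48. Between diets with papain, 6 of 15 signalling genes were called, all with more on the AhR-poor diet, where 7.15% of all genes were called higher. The list as a whole was not higher, as 7 of the 15 had a positive difference. Its median log2 difference was -0.025, against 0.010 over all genes. Lyn, Tyrobp, Fyn, Gab2 and Pik3cd were among the 6. Gab2 fell with papain on the I3C diet by 1.23. Stat5a and Stat5b, the transcription factors that GM-CSF receptors activate, were called in no comparison, at 34.01 to 45.02 and 43.6 to 51.1 CPM on average.

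Of 12 targets and inhibitors of these receptors, 1 rose with papain on the AhR-poor diet and 3 fell with papain on the I3C diet. The shares of all tested genes called in those directions were 6.04% and 5.29%. Cish, a feedback inhibitor, averaged 181 and 85.1 CPM with vehicle and papain on the I3C diet, a fall of 1.09 (adjusted p = 0.00038), and 137 and 94.3 CPM on the AhR-poor diet (-0.54, adjusted p = 0.043). Socs3, another feedback inhibitor, averaged 666 and 360 CPM on the I3C diet (-0.89, adjusted p = 0.0033, below the minimum fold change) and 525 and 418 CPM on the AhR-poor diet. Socs2 and the target Myc fell with papain on the I3C diet, by 1.36 and 1.07. Inpp5d, a phosphatase of blood cells, rose with papain on the AhR-poor diet by 1.22. Of the transcription factors, Spi1 (PU.1), which directs myeloid genes, rose with papain on both diets, by 1.23 on the I3C and 1.84 on the AhR-poor diet, and Id2 fell on the I3C diet by 1.21. With papain, Spi1, Irf8 and Runx3 stood above their I3C levels by 1.53, 1.55 and 1.36. The interaction passed its threshold for Tgfb1, Socs2 and Cebpb, which had log2 values of 0.79, 1.47 and 0.75, each with an adjusted p of 0.041. Their papain changes were -0.53, -1.36 and -0.47 on the I3C diet and 0.26, 0.11 and 0.28 on the AhR-poor diet. Of these changes only that of Socs2 on the I3C diet was called.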

How the data were processed

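Epidermal cells of 16 mice were sequenced after poly(A) selection with a stranded kit, and the authors deposited raw read counts per gene and library, made after STAR alignment to mm10. The counter, its annotation and its strand setting are not given in the sources used here, so reads of overlapping genes on opposite strands may not have been separated. Groups came from the sample titles. The labels share no replicate numbers between groups, and the methods name 3 sequencing units that the labels do not assign to libraries.

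Genes reaching 10 counts over the 16 libraries were fitted in edgeR 4.0.16 (R 4.3.3) with TMM factors, a mean for each group and the robust quasi-likelihood F test, with Benjamini-Hochberg adjustment over all 22155 genes. The 95% intervals used the fit's degrees of freedom. Two-sided exact permutation tests compared 4 libraries with 4. CPM are counts over TMM-scaled totals; log2 CPM used a prior count of 2. Exonic lengths, positions and overlaps came from GENCODE M21 for GRCm38, and promoters from a RefSeq table that matched 4 of the 8 members, Csf1, Csf2, Csf2ra and Flt3l. That of Csf2 is not shown, as its RefSeq start lies 232 bases from the GENCODE start. Where several transcripts of a gene are known, the union of their exons was used. Other settings tried were DESeq2 1.42.0, RLE factors, no scaling beyond library size, the filterByExpr filter, every gene with a count, the 8 compared libraries alone, other thresholds, Csf2rb and Csf2rb2 added together, and leaving out each library. The model was tested on simulated data. The members, gene lists and tests were chosen with earlier results of these data known. Named were all members, the 3 genes most like each, and listed pathway genes called in any comparison, plus Csf3r, Flt3, Csf2rb2, Stat5a, Stat5b, Socs3 and Cish whatever their values, single markers, and genes that share exonic bases with a member. The values of 1 listed gene are not reported here.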

Additional observations from a re-analysis of the deposited data

Results flagged for a closer look

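In 2 of 32 sets of 4 libraries (8 genes in 4 groups), 1 library lay far from the other 3 relative to the range of the set; chance alone does this in about 1 of 20 sets. Csf1 in vehicle library T101 of the AhR-poor diet was 20.1 CPM, against 23.3 to 23.4 CPM in the others of that group. Il34 in papain library T104 of the AhR-poor diet was 28.9 CPM, against 43.9 to 45.1 CPM in the other 3.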

How the results depend on the processing

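Under 949 alternative fits of single members, 922 kept their side of the threshold and 27 did not. The sign differed in 30, in none of which the gene was called either way. Papain called 6 members on the AhR-poor diet under every setting run and 2 on the I3C diet under all but 1, leaving out each library included. Between diets with vehicle, DESeq2 and the fit of the 8 libraries compared each called 1 member, Csf1r. With papain, the fit of 8 libraries called 1 of the 5, Csf3, and leaving out 1 library gave 3 to 5, with 3 (Csf3, Csf2ra and Csf2rb) without T113, T114, T115, T104, T105 or T107. For the interaction, library size only, filterByExpr and DESeq2 each called 1 member, Csf3, and leaving out 1 library gave 0 to 2, with 2 (Csf3 and Csf2ra) without T112. The cause of these changes was not tested. Over all genes, the diet comparison with vehicle, 352 calls, gave 601 with DESeq2, 587 at an adjusted p below 0.05 and 194 (without T110) to 430 (without T106) with 1 library left out. The 73 calls of the interaction became 523 with DESeq2, 4 at an adjusted p below 0.01 and 10 (without T108) to 422 (without T106). With no minimum fold change, papain gave 4977 calls on the AhR-poor and 5685 on the I3C diet, and the diets differed in 2482 genes with papain. That setting also called Csf2ra with papain on the I3C diet, which made 3 members there. No paired analysis was possible because the labels share no replicate numbers between groups. Depth limits Csf2 and Csf3, which had 2 to 30 counts a library on the I3C diet with papain and 1 to 12 with vehicle.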
